A study of Homo sapiens with 24 samples.

Results

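Chromatin at 6 genes of the neuromuscular junction was described from peak lists of RD cells. RD is an established human line of fusion-negative rhabdomyosarcoma, in which tumour cells carry muscle markers but do not mature into muscle. The genes were CHRNA1, CHRND, CHRNG and CHRNB1, which encode muscle subunits of the acetylcholine receptor, MUSK, a receptor tyrosine kinase, and RAPSN, a scaffold protein. Members were every peak that overlapped 1 of 5 windows around these genes, and CHRND and CHRNG, which lie side by side, shared a window. The windows held 340 of the 564552 peaks in 14 lists. They were chr2:175560000-175680000 for CHRNA1, chr2:233340000-233460000 for CHRND and CHRNG, chr17:7310000-7400000 for CHRNB1, chr9:113380000-113610000 for MUSK and chr11:47410000-47520000 for RAPSN, on hg19, with positions counted from 1.

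The acetylcholine receptor of muscle is a pentamer of alpha, beta, delta and either gamma or epsilon subunits, and the gamma subunit marks the fetal form. MUSK responds to agrin released by the motor nerve, through its co-receptor LRP4, and rapsyn, the product of RAPSN, then anchors the receptors in dense clusters under the nerve ending. During myogenesis the receptor subunit genes are known targets of MYOD and related factors, which bind the E-box CANNTG. TWIST2 is a basic helix-loop-helix factor that also recognises E-boxes and is known as an inhibitor of muscle differentiation.

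Chromatin immunoprecipitation with sequencing was done on cells with TWIST2 knockdown (KD) and on control cells, with 2 libraries in each group for each of 3 antibodies. These were against H3K27ac, an acetylation of histone H3 found at active promoters and enhancers, MYOD, and SMARCA4 (BRG1), a motor subunit of SWI/SNF complexes, which move nucleosomes. A further 2 libraries, with an antibody to the Ty1 tag, came from RD cells with 3xTy1-TWIST2, a tagged TWIST2, and had no matched Ty1 library of cells without the tag. The remaining 10 of 24 samples were inputs and were not analysed here. The labels put the H3K27ac, MYOD and Ty1 libraries in a set named RD-1 and the SMARCA4 libraries in a set named RD-2, and do not say how these sets differ. SMARCA4 peaks are therefore set beside peaks of another set wherever antibodies are compared. The labels name no method of knockdown and do not say that the replicates of a group came from separate cultures, so p-values measure only the spread between these libraries, which may be technical. TWIST2 level was not analysed here, so the knockdown itself was not checked, and neither was the labelled cell type, since RNA was not measured.

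The H3K27ac, MYOD and Ty1 lists give positions only, so their depth is unknown. The H3K27ac lists held 48022 and 46822 peaks in KD libraries and 36679 and 34932 in control libraries, so every H3K27ac result below stands beside a longer KD list. The SMARCA4 headers give 36095336 and 41066933 tags in KD libraries and 46690705 and 44810601 in control libraries. Control replicate 2 stood apart among the SMARCA4 lists, with 25013 peaks against 11835 to 14676 in the other lists. Its share of tags in peaks, which the headers call approximate IP efficiency, was 1.83%, against 0.65% to 0.88% in the others. With 2 against 2 libraries the exact two-sided permutation test used here cannot give a p below 0.333, so no difference between groups could pass 0.05 in it.

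Promoter sequence of 4 of the 6 genes was at hand from RefSeq on GRCh38.p14, from 250 bases before to 50 bases after the start of the gene. The promoters of CHRNA1, chr2:174764423-174764722 on the minus strand, and MUSK, chr9:110668541-110668840 on the plus strand, are shown because H3K27ac covered more of the MUSK window and less of the CHRNA1 window in both KD libraries. Each is written in the direction of transcription, and capitals mark E-boxes, the motif CANNTG, which reads as the same pattern on both strands.
CHRNA1: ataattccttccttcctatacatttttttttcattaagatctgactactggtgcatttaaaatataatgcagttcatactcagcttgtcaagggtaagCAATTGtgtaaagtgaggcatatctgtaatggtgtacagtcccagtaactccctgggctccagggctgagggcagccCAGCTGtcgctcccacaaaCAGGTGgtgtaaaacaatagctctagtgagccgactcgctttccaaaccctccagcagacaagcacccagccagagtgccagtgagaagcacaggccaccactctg
MUSK: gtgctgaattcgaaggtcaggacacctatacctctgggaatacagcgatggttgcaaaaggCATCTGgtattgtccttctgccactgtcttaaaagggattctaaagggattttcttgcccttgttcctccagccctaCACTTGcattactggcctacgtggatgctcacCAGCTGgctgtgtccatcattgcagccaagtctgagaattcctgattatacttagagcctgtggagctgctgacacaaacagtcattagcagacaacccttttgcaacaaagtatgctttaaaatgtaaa
Both promoters hold CAGCTG, a form of the E-box bound by MYOD, with its first base at -75 in CHRNA1 and at -80 in MUSK, counted from the start site as +1. CHRNA1 also holds CAGGTG at -56 and CAATTG at -152, and MUSK holds CACTTG at -112 and CATCTG at -189. The CHRND promoter has 2 E-boxes, CACCTG at -27 and CAGATG at 28, and the CHRNB1 promoter has 4, with CAGGTG nearest to the start site at -24. CATATG, a form bound by TWIST factors, is in none of these 4 windows. Of 35116 RefSeq promoters of the same length, 68.7% hold an E-box, 15.3% hold at least 3, 17.9% hold CAGCTG, 20.6% hold CAGGTG or its reverse complement CACCTG, and 3.04% hold CATATG. CHRNG and RAPSN are not shown. The peaks are on another build than these sequences, so no peak was placed on a promoter, and peaks in a window may belong to a neighbouring gene. By RefSeq order on GRCh38.p14 the neighbours are WIPF1 and CHN1 for CHRNA1, PRSS56 and TIGD1 for CHRND and CHRNG, FGF11 and ZBTB4 for CHRNB1, SVEP1 and LPAR1 for MUSK, and PSMC3 and CELF1 for RAPSN.

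**Figure D1:**
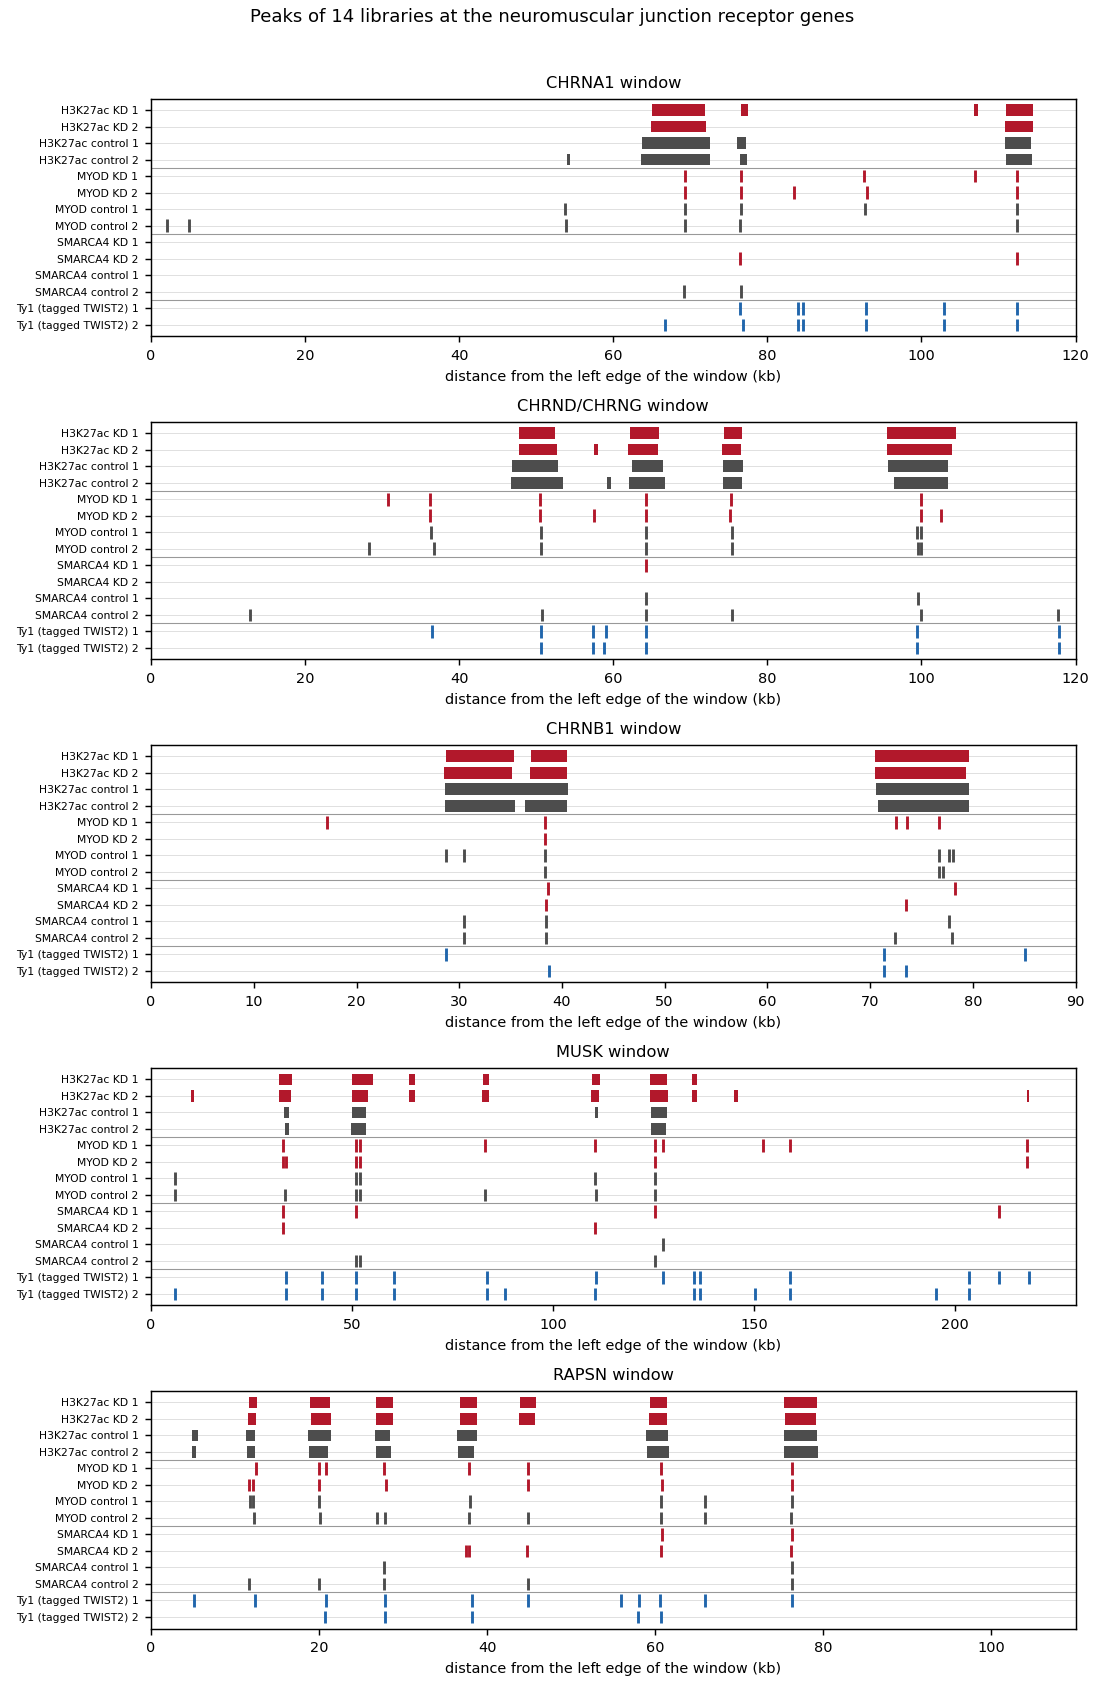
Peaks of 14 libraries in the 5 windows, plotted by distance from the left edge of each window (kb), KD libraries in red above control libraries in dark grey, and Ty1 libraries in blue. H3K27ac peaks are drawn to scale and the narrow MYOD, SMARCA4 and Ty1 peaks as ticks of one width; the MUSK window shows 7 and 10 H3K27ac peaks in KD libraries and 4 and 3 in control libraries.

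Of the 5 windows, MUSK had the largest H3K27ac difference between KD and control libraries. MUSK had 7 and 10 H3K27ac peaks in KD libraries, against 4 and 3 in control libraries. These covered 18.7 and 19.9 kb in KD libraries, against 9.46 and 8.36 kb in control libraries. Both measures were higher in each KD library than in each control library. The KD lists were also longer, and the share of other genome windows with higher values in both KD libraries was not examined. The covered length averaged 19.3 ± 0.85 kb (SD, n = 2) in KD libraries, against 8.91 ± 0.775 kb (SD, n = 2) in control libraries, a ratio of 2.16, with an exact two-sided permutation p of 0.333. MUSK held 22.1% and 23.4% of all H3K27ac-covered bases of the windows in KD libraries, against 11.9% and 10.8% in control libraries. Its window is the longest, with 230000 bp of the 0.67 Mb in all windows. With equal numbers of peaks from the top of each list, the difference in covered length was 9.3 kb, against 10.3 kb with the whole lists. With only the top 0.5 of each list it was 6.59 kb. Both settings choose peaks by their order in the list, and the meaning of that order is not known.

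The receptor subunit genes did not share the MUSK pattern. CHRNA1, which encodes the alpha subunit that binds acetylcholine, had 11.7 and 10.9 kb under H3K27ac peaks in KD libraries, against 13.3 and 13.8 kb in control libraries. CHRND and CHRNG, the delta and gamma subunits, had 19.6 and 20.3 kb in KD libraries, against 20.5 and 21.3 kb in control libraries. CHRNB1, the beta subunit, had 19.2 and 19 kb in KD libraries, against 21.0 and 19.9 kb in control libraries. In each of these windows both KD libraries were lower than both control libraries, by ratios of the means of 0.833, 0.954 and 0.935 in the same order. Each exact two-sided permutation p was 0.333, and the difference between these windows and MUSK was not tested. The share of other genome windows with lower values in both KD libraries was not examined. RAPSN had 15.2 and 15.0 kb in KD libraries, against 15.0 and 14.1 kb in control libraries, with overlapping groups and a ratio of 1.03. The CHRNA1 difference of -2.26 kb became 4.77 kb when the windows were widened by 50000 bp on each side, which takes in more of its neighbours, and the RAPSN difference of 0.502 kb became -0.468 kb with equal numbers of peaks from each list.

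**Figure D2:**
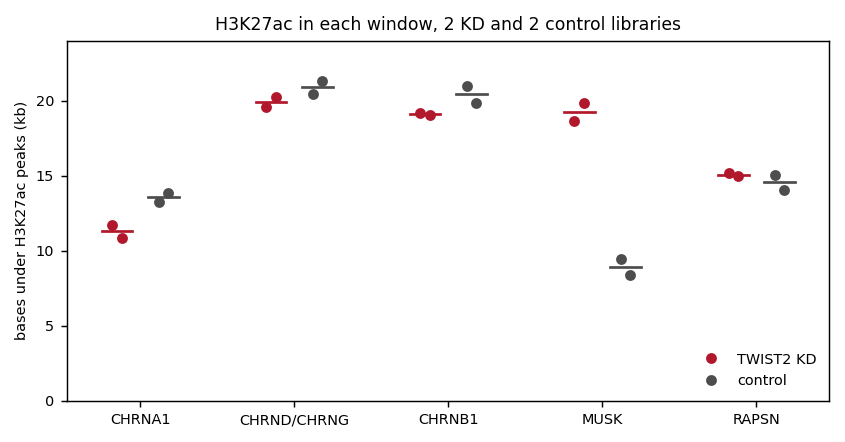
Bases under H3K27ac peaks (kb) in each window and library, with KD libraries (red) left of control libraries (dark grey) and a bar at each mean of 2 libraries. MUSK averaged 19.3 kb in KD and 8.91 kb in control libraries, while the KD means of CHRNA1, CHRND/CHRNG and CHRNB1 lie below the control means.

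Summed over the windows, H3K27ac gave 25 and 27 peaks in KD libraries and 21 and 23 in control libraries, a mean of 26 ± 1.41 against 22 ± 1.41 (SD, n = 2 each, exact two-sided permutation p = 0.333). The covered length was 84.3 and 85.0 kb in KD libraries and 79.2 and 77.4 kb in control libraries, a difference in means of 6.28 kb with an exact permutation p of 0.333. With equal numbers of peaks from the top of each list, the windows averaged 22.5 peaks in KD and 22 in control libraries, a difference of 0.5 (exact permutation p = 1), and the covered length differed by 3.77 kb. Windows widened by 50000 bp gave differences of 10.5 peaks and 15.6 kb. The whole-list sum combines the MUSK difference of 10.3 kb with negative differences at the subunit genes. The windows were dense in peaks, at 37.3 and 40.3 per Mb in KD libraries and 31.3 and 34.3 per Mb in control libraries. The whole lists held 15.8 and 15.4 per Mb in KD libraries and 12.1 and 11.5 per Mb in control libraries.

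Merging the peaks of the 4 H3K27ac libraries gave 32 regions in the windows. Of these, 18 (56.2%) were in all 4 libraries, called shared here, against 49.1% of all 55905 merged H3K27ac regions. In both KD libraries and no control library, called KD-only, were 4 regions (12.5%), against 19.8% of all regions. In both control libraries and no KD library, called control-only, was 1 region, against 4.21% of all regions. The windows thus held no larger share of KD-only regions than the rest of the genome. Classes get larger by construction when fewer libraries must agree, and without KD replicate 1 the KD-only count was 8. The control-only count was 3 without control replicate 1 and 2 without KD replicate 1.

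Of the 4 KD-only H3K27ac regions 3 were at MUSK, and the fourth at RAPSN. They were 3 of 10 merged regions at MUSK (30.0%) and 1 of 8 at RAPSN (12.5%), against 19.8% of all regions. The first MUSK region, chr9:113444152-113445556, was 1320 and 1405 bp wide in KD libraries. The second, chr9:113462450-113464095, was 1581 and 1641 bp wide, and the third, chr9:113514552-113515865, was 1225 and 1307 bp wide. The last 2 overlapped a TWIST2 region, defined as a merged Ty1 region with a peak in both Ty1 libraries. The same held for 31.5% of all KD-only H3K27ac regions. The RAPSN region, chr11:47453832-47455789, was 1880 and 1817 bp wide in KD libraries. It also held a MYOD peak in both KD libraries and in control replicate 2, and a SMARCA4 peak in KD replicate 2 and control replicate 2. The control-only region, chr11:47414838-47415609 near the left edge of the RAPSN window, was 772 and 501 bp wide and lay low in both control lists, at percentiles 9.37 and 7.15 with 100 at the top of a list.

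Among the 18 shared H3K27ac regions, 6 were wider in both KD libraries than in both control libraries, against 45.4% of all 27442 shared regions. Another 6 were narrower in both KD libraries, against 29.8% of all, and in the other 6 the groups overlapped. The median ratio of KD to control width was 0.969 over the 18 regions and 1.05 over all shared regions. All 3 shared regions of MUSK were among the wider ones, and none of them among the narrower. Leaving out control replicate 2, so that fewer libraries must agree, gave 10 narrower regions. Counting only regions wholly inside the windows gave 5.

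At MUSK the largest change in width was at chr9:113411828-113414952. This region covered 3125 and 2984 bp in KD libraries, against 1150 and 1009 bp in control libraries, a ratio of means of 2.83. Its percentile in the lists was 88.2 in both KD libraries, against 36.1 and 32.1 in control libraries. The files do not say what the order of these lists means. For single regions it is used only to describe. The alternatives that take equal numbers of peaks, or only the top part of each list, also rest on this order. They compare the strongest peaks only if the order follows peak strength, which was not tested. The widest shared MUSK region, chr9:113429861-113435207, covered 5199 and 4070 bp in KD libraries, against 3582 and 3659 bp in control libraries. The third, chr9:113504171-113508525, covered 4150 and 4274 bp in KD libraries, against 3831 and 3693 bp in control libraries. KD libraries were wider than control libraries at all 3, and did not overlap with them.

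At CHRNA1 the widest region, chr2:175623559-175632596, went the other way. It covered 6849 and 7221 bp in KD libraries, against 8756 and 9038 bp in control libraries, a ratio of 0.791. The other shared CHRNA1 region, chr2:175670798-175674464, covered 3474 and 3646 bp in KD libraries, against 3334 and 3426 bp in control libraries. The CHRND and CHRNG window held changes in both directions. Its widest region, chr2:233435503-233444443, covered 8941 and 8496 bp in KD libraries, against 7864 and 7013 bp in control libraries. Its region at chr2:233386736-233393446 covered 4641 and 4877 bp in KD libraries, against 6018 and 6711 bp in control libraries, a ratio of 0.748. At CHRNB1 the widest region, chr17:7338560-7350557, covered 10044 and 10198 bp in KD libraries, against 11943 and 10923 bp in control libraries. The widest RAPSN region, chr11:47485288-47489308, covered 3893 and 3637 bp in KD libraries, against 3873 and 4021 bp in control libraries, with overlapping groups. Another RAPSN region, chr11:47468848-47471628, covered 1951 and 2149 bp in KD libraries, against 2648 and 2633 bp in control libraries, a ratio of 0.776. RAPSN also had 1 region that was wider in both KD libraries. The windows of CHRNA1, CHRND with CHRNG, CHRNB1 and RAPSN thus each had at least 1 region that was narrower in both KD libraries.

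**Figure D3:**
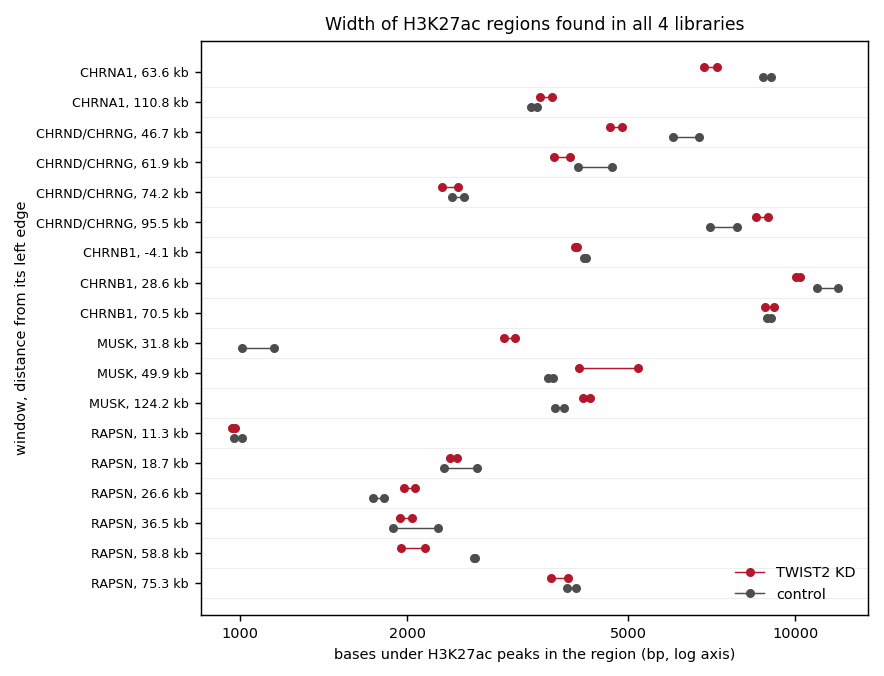
Bases under H3K27ac peaks (bp, log axis) in the 18 regions found in all 4 libraries, named by window and distance from its left edge, with KD libraries (red) above control libraries (dark grey) and a line joining the 2 libraries of a group. The MUSK region at 31.8 kb has the widest gap, with 3125 and 2984 bp in the KD libraries, against 1150 and 1009 bp in the control libraries.

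MYOD peak numbers in the windows differed by less than the spread between libraries. The windows held 34 and 26 MYOD peaks in KD libraries, against 29 and 32 in control libraries. The KD mean was 30 ± 5.66 and the control mean 30.5 ± 2.12 (SD, n = 2 each, exact two-sided permutation p = 1). The difference of -0.5 was 3.5 without KD replicate 2, 1 without control replicate 2 and 0.5 peaks with the top 0.5 of each list, so it had no stable sign. MUSK had 10 and 6 MYOD peaks in KD libraries, against 5 and 7 in control libraries. CHRNB1 had 5 and 1 in KD libraries, against 6 and 3 in control libraries. CHRNA1, the CHRND and CHRNG window and RAPSN had between 5 and 9 in every library, and all 5 windows had overlapping groups. Each MYOD list has 1 fixed peak width, 213 and 225 bp in KD libraries and 159 and 179 bp in control libraries, so MYOD width carries no information on a single site.

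The 4 MYOD libraries gave 55 merged regions, of which 14 (25.5%) were shared, against 20.3% of all 88541 regions. Only 2 regions were KD-only (3.64%), against 9.1% of all, and 4 were control-only (7.27%), against 5.41% of all. Both KD-only regions were among the 12 MYOD regions at MUSK (16.7%), at chr9:113412693-113412919 and chr9:113597741-113597979. The control-only regions were chr2:175613691-175613982 at CHRNA1, chr2:233439375-233439606 at CHRND and CHRNG, chr9:113385814-113385995 at MUSK and chr11:47475880-47476058 at RAPSN. The control-only site at CHRND and CHRNG stood high in both control lists, at percentiles 91.5 and 91.6. It overlapped a TWIST2 region, with centres 86 bp apart, and a SMARCA4 peak of control replicate 1. The top MYOD site of this window, chr2:233439866-233440096, lies next to it and was in all 4 libraries. Merging MYOD peaks within 500 bp joins these sites and leaves 3 control-only regions. Leaving out a library relaxes the rule of a class, so class counts get larger by construction. The KD-only count was 7 without KD replicate 1 and 12 without KD replicate 2, and the control-only count was 8 to 10 without control replicate 1, control replicate 2 or KD replicate 1.

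The shared MYOD regions lay high in the lists. Of the 14 in the windows, 9 (64.3%) had a mean list position at or above the 90th percentile, as did 3286 (18.3%) of 17971 shared MYOD regions in all. The medians were 95.6 in the windows and 68.6 over all shared regions. At CHRNA1 the site chr2:175629146-175629376, inside its widest H3K27ac region, was at percentiles 99.6 and 99.9 in KD libraries and 99.9 and 99.8 in control libraries. At CHRND and CHRNG the site chr2:233439866-233440096, also inside the widest H3K27ac region, was at 99.5 and 99.8 in KD libraries and 99.9 in both control libraries. At MUSK the site chr9:113430880-113431104 was at 98.5 and 98.2 in KD libraries and 98.9 and 99.3 in control libraries. The single shared site of CHRNB1, chr17:7348261-7348485, was at 95.8 and 97.6 in KD libraries and 96.6 and 92.2 in control libraries. The highest RAPSN site, chr11:47470614-47470859, was at 92.6 and 88.2 in KD libraries and 95.7 and 94.2 in control libraries. Each window thus had a shared MYOD site at percentile 88.2 or above in every MYOD list.

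Shared MYOD sites lay almost all within shared H3K27ac regions, 13 of 14, against 72.0% of all shared MYOD regions. The exception was chr2:175636383-175636677 at CHRNA1, where H3K27ac covered 892 bp in KD replicate 1 and no base in KD replicate 2, against 1168 and 884 bp in control libraries. Seen from the other side, 13 of the 18 shared H3K27ac regions held a shared MYOD region, against 44.1% of all. Of these, chr17:7305853-7310042 crosses the left edge of the CHRNB1 window, and its shared MYOD region lies outside the window. The 18 regions were wide, with medians of 3780 bp in KD and 3690 bp in control libraries. Over all shared H3K27ac regions the medians were 2350 and 2170 bp, and the comparison was not matched for width. A SMARCA4 peak of at least 1 library overlapped 13 of the 14 shared MYOD sites, against 64.1% of all.

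**Figure D4:**
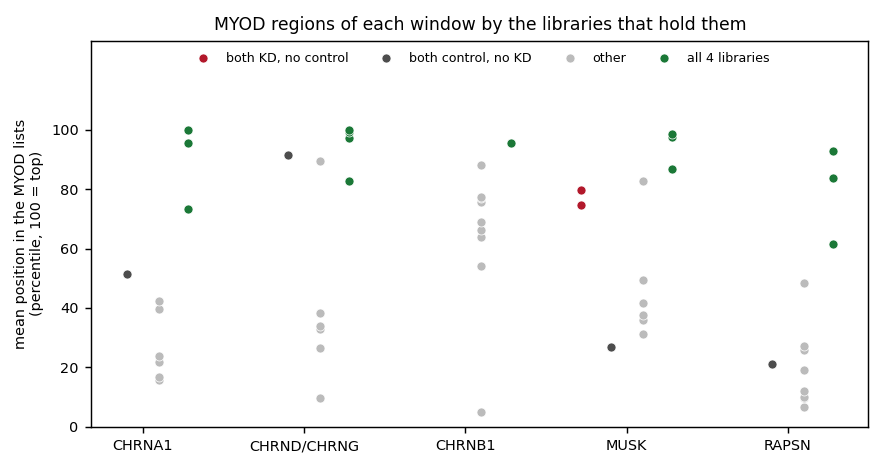
Mean position of each merged MYOD region in the MYOD lists that hold it (percentile, 100 = top of the list), by window and by the libraries that hold it, from left to right both KD and no control (red), both control and no KD (dark grey), other combinations (light grey) and all 4 (green). Regions of all 4 libraries reach from 61.6 to 99.8, and the 2 KD-only regions of MUSK are at 79.7 and 74.8.

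SMARCA4 peaks were few and differed as much between replicates as between groups. The windows held 9 and 11 SMARCA4 peaks in KD libraries, against 8 and 20 in control libraries. The KD mean was 10 ± 1.41 and the control mean 14 ± 8.49 (SD, n = 2 each, exact two-sided permutation p = 1). The difference of -4 became 2 without control replicate 2, the library with the longest list, and -10 without control replicate 1. In the CHRND and CHRNG window there were 1 and 0 SMARCA4 peaks in KD libraries, against 2 and 6 in control libraries. In the CHRNB1 window there were 2 and 2 in KD libraries, against 3 and 4 in control libraries. These 2 windows had fewer peaks in both KD libraries than in both control libraries, each with an exact permutation p of 0.333. How many other windows of the genome differ in this way was not examined. CHRNA1 had 0 and 2 in KD libraries and 0 and 2 in control libraries, MUSK had 4 and 2 in KD libraries and 1 and 3 in control libraries, and RAPSN had 2 and 5 in KD libraries and 2 and 5 in control libraries.

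Of 34 merged SMARCA4 regions, 1 was shared, against 1.11% of all 48009 regions. It was chr11:47486131-47486327 at RAPSN, inside the widest H3K27ac region of that window and at a shared MYOD site. The authors' normalized tag count there, per 10000000 tags, was 9.14 and 6.33 in KD libraries and 10.3 and 9.82 in control libraries. Its percentile in the SMARCA4 lists was 97.8 and 86.4 in KD libraries, against 84.6 and 81.2 in control libraries. List positions and tag counts thus differed in direction at this site. Tag counts were not adjusted for approximate IP efficiency, 0.65% and 0.70% in KD libraries and 0.88% and 1.83% in control libraries. Of the other regions 1 was KD-only, against 1.91% of all, and 2 were control-only, against 6.68% of all. The control-only regions were chr17:7340368-7340562 at CHRNB1, with 11.8 tags in both control libraries, and chr11:47437648-47437842 at RAPSN, with 7.92 and 8.48. The strongest SMARCA4 region of the windows by tags was chr2:233404150-233404368 at CHRND and CHRNG. It had 7.48 tags in KD replicate 1 and no peak in KD replicate 2, against 17.1 and 19.2 in control libraries. Its percentile was 92.9 in KD replicate 1, against 99.2 and 99.5 in control libraries. Without a KD library the KD-only count was 5 to 7, and the control-only count was 13 without control replicate 1 and 5 without control replicate 2. Here too fewer libraries must agree, which makes classes larger by construction.

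**Figure D5:**
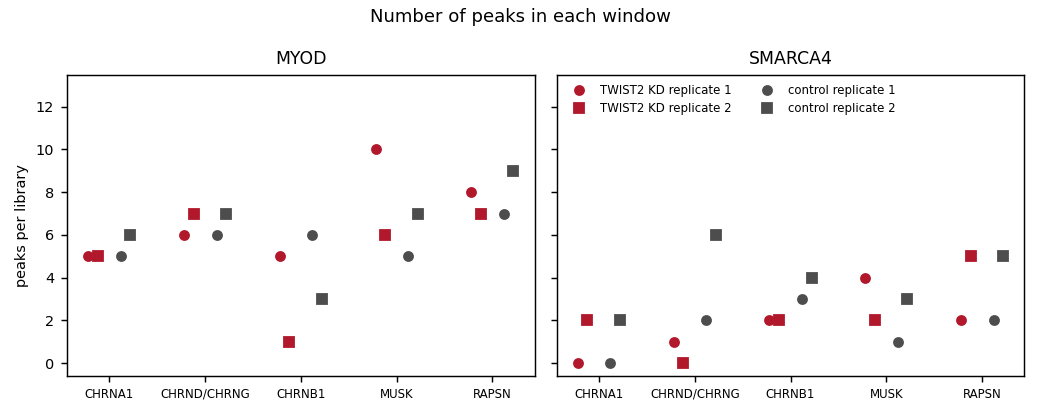
Number of MYOD peaks (left panel) and SMARCA4 peaks (right panel) per library in each window, KD libraries (red) left of control libraries (dark grey), circles for replicate 1 and squares for replicate 2. The groups overlap for MYOD in every window, and for SMARCA4 they are apart in the CHRND/CHRNG window, with 1 and 0 peaks in KD and 2 and 6 in control libraries, and in the CHRNB1 window.

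The KD-only SMARCA4 region, of set RD-2, was chr9:113412679-113412871 at MUSK and overlapped the first KD-only MYOD region, of set RD-1. Its normalized tag count was 5.26 and 4.38 in KD libraries. Among all 8059 KD-only MYOD regions, 108 (1.34%) overlapped a KD-only SMARCA4 region. The site lies within the MUSK H3K27ac region that was wider in both KD libraries. A TWIST2 region, chr9:113413335-113413612, is in the same H3K27ac region, with its centre 668 bp from that of the MYOD site. It stood at percentiles 96.9 and 97.9 of the Ty1 lists. That TWIST2 region overlaps another MYOD region, chr9:113413283-113413577, with a peak in KD replicate 2 and in control replicate 2. Merging MYOD peaks within 500 bp joins it to the KD-only MYOD site, which is then no longer KD-only. The SMARCA4 peaks stood near the middle of their lists, at percentiles 60.1 in KD replicate 1 and 47.5 in KD replicate 2, so with only the top 0.5 of each list the region was no longer in both KD libraries.

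Tagged TWIST2 was found in all windows, with 40 and 35 Ty1 peaks in the 2 libraries. They merged to 48 regions. Both libraries had a peak in 27 of them (56.2%), against 50.3% of all 96594 Ty1 regions. MUSK, whose window is the longest, had 10 of these TWIST2 regions, the CHRND and CHRNG window 6, CHRNA1 and RAPSN 5 each, and CHRNB1 1. An H3K27ac region of any library overlapped 15 of the 27, against 50.3% of all 48591 TWIST2 regions. A MYOD region of any library overlapped 13, against 48.1%, and a SMARCA4 region of any library 8, against 27.1%. No H3K27ac, MYOD or SMARCA4 region overlapped 9 of the 27, against 38.3%. These shares were close to those of all TWIST2 regions.

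TWIST2 and shared MYOD sites coincided at 5 places, against 17.2% of all TWIST2 regions. Counted over MYOD sites, these were 5 of 14, against 46.6% of all shared MYOD regions, and 4 had centres within 50 bp of a TWIST2 centre, against 25.0%. At CHRND and CHRNG the TWIST2 regions chr2:233404146-233404426 and chr2:233390435-233390673 had centres 5 and 19 bp from the MYOD centres. At CHRNA1, chr2:175672305-175672565 was 10 bp away, and at MUSK, chr9:113430842-113431180 was 19 bp away. At RAPSN, chr11:47470450-47470833 was 95 bp away. CHRNB1 had no such site, and its shared MYOD site was 32997 bp from the nearest TWIST2 centre. The top MYOD sites of CHRNA1 and of CHRND and CHRNG were not at a TWIST2 region either. The nearest TWIST2 centre was 14745 bp away for CHRNA1 and 576 bp away for CHRND and CHRNG. These distances leave out Ty1 peaks found in 1 library only. Such peaks of Ty1 replicate 2 lay nearer, at chr17:7348629-7348859 for CHRNB1 and at chr2:175626584-175626814 for CHRNA1. TWIST2 regions overlapped 12 of the 18 shared H3K27ac regions, against 52.0% of all, again without matching for width.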

How the data were processed

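ChIP-seq peak lists of 14 libraries were analysed. The members, windows and lists were chosen with earlier results of these data known. The H3K27ac, MYOD and Ty1 lists deposited by the authors hold coordinates only. The deposited SMARCA4 lists also hold a tag signal per peak, a peak score and a fold ratio over input. Per the file headers, HOMER called the SMARCA4 peaks at an FDR of 0.001, asked for 4 times the tags of the input, and normalized tags to 10000000. The submitters' processing notes list HOMER 4.4, bedtools 2.29.2, SAMtools 0.1.19 and Bowtie2 2.3.4.3 without roles, and hg19 (GRCh37) as the build. Of 35116 RefSeq promoters on GRCh38, 6.83% overlapped an H3K27ac peak of control replicate 1, against 4.62% after a shift of 1000000 bp, so GRCh38 coordinates were not used for peaks. No annotation of the files' build was used, so agrin, LRP4, DOK7 and other genes of the pathway were not analysed here.

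Groups followed the labels. Peaks were counted in a window if they overlapped it by at least 1 bp, and covered bases were those inside the window. Region widths are the bases under a library's peaks in the whole merged region. For each antibody, overlapping peaks of the 4 libraries were joined into regions, which were classed by the libraries that held them. Means over libraries were compared by the exact permutation test, two-sided. Counts of regions were set beside the share over all regions, without a test. Regions given with coordinates were all KD-only and control-only regions, the widest shared H3K27ac region of each window and TWIST2 regions at shared MYOD sites; any others were chosen after their values were seen. Alternatives were equal numbers of peaks from each list, the top 0.5 of each list, peaks wholly inside, windows widened by 50000 bp, a merge distance of 500 bp, an overlap of 0.5 of the shorter peak, MYOD peaks of 200 bp, TWIST2 regions from either Ty1 library, leaving out each library and a block for the replicate number. The width classes and single windows were added to these after seeing the data. Python 3.11.15, numpy 2.4.6, pandas 2.3.3 and matplotlib 3.10.9 were used, and the scripts were tested on simulated data.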

Additional observations from a re-analysis of the deposited data

How the results depend on the processing

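Peak lists without scores or depth limit every result, since presence and width depend on the authors' thresholds, and the exact permutation test used here gives no p below 0.333 with 2 libraries per group. At MUSK the KD minus control difference in H3K27ac peaks (2 to 6.5) and in covered length (6.59 to 10.9 kb) was positive under every alternative run. Leaving out 1 library gave differences of 3 to 5 peaks and 5.38 to 7.18 kb for H3K27ac over the windows, -4.5 to 3.5 peaks for MYOD and -10 to 2 for SMARCA4. It gave 4 to 8 KD-only, 1 to 3 control-only, 6 to 8 wider and 7 to 10 narrower H3K27ac regions. For MYOD it gave 3 to 12 KD-only and 5 to 10 control-only regions, and for SMARCA4 1 to 7 and 3 to 13. Classes get larger by construction when fewer libraries must agree.

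With equal numbers of peaks from each list, the H3K27ac difference over the windows was 0.5 peaks and 3.77 kb, 2 H3K27ac regions were control-only and the RAPSN difference in covered length was -0.468 kb. With the top 0.5 of each list, 0 H3K27ac regions were control-only, 2 MYOD regions were control-only, 0 SMARCA4 regions were KD-only and the MYOD difference was 0.5 peaks. Windows widened by 50000 bp gave H3K27ac differences of 10.5 peaks and 15.6 kb and held 8 KD-only and 11 wider H3K27ac regions. They held 5 MYOD regions that were KD-only and 8 that were control-only, 4 control-only SMARCA4 regions and 45 TWIST2 regions. In them the difference was 1 for MYOD peaks, 2 H3K27ac peaks and 4.77 kb at CHRNA1, and 0.5 H3K27ac peaks at CHRNB1. With peaks wholly inside, CHRNB1 also differed by 0.5 H3K27ac peaks, and with 1 library left out CHRNA1 differed by -1.5 to 0.5. Merging within 500 bp gave 1 KD-only MYOD and 2 KD-only SMARCA4 regions. A peak in either Ty1 library gave 48 TWIST2 regions. The causes were not tested.

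Replicate numbers were only shared labels, with 2 pairs. With the replicate number as a block, the H3K27ac differences of 4 peaks and 6.28 kb each had an exact permutation p of 0.5, and those of -0.5 MYOD peaks and -4 SMARCA4 peaks a p of 1.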
